A study of Mus musculus with 19 samples.

Results

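The comparison set 3 blastocysts against 3 morulae from the same type of cross, out of 19 single mouse embryos in the series. The 6 embryos were chosen by their labels: stage, parents heterozygous for an Alyref knockout (Alyref+/- x Alyref+/-), and a genotype given as WT or hetero. They are called non-KO here, because WT and heterozygous embryos were not told apart, so any of the 6 may carry 1 knockout copy of Alyref. All 6 were B6D2F1 in vitro fertilised embryos grown in the embryo culture medium KSOM in 5% CO2 at 37 °C, and all were collected 96 hours after insemination. The comparison is therefore between embryos of 1 age that had reached different stages, not between 2 times. Values from 2 non-KO morulae and 3 non-KO blastocysts of a Gabpb1+/- x Gabpb1+/- cross and from 3 blastocysts of WT B6D2F1 parents, collected at the same hour, are set beside them. The Alyref protein helps mRNA leave the nucleus, and Gabpb1 is the beta subunit of GABP, a transcription factor. Each embryo was lysed whole, and polyA RNA was amplified and sequenced, with ERCC spike-in RNA added after lysis. No label ties an embryo to a mother, a father or a fertilisation session. P-values therefore measure the spread between single embryos. That spread was estimated over all 19 embryos in 7 groups, which include knockout morulae of both crosses.

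A morula is a compacted ball of cells, and a blastocyst has a fluid-filled cavity, the blastocoel, inside a sealed outer epithelium called the trophectoderm. The epithelium seals through tight junctions, braces itself with keratin filaments and an actomyosin cortex, and fills the cavity by pumping sodium with the Na/K-ATPase so that water follows. The inner cell mass holds the epiblast, marked by Nanog, Sox2 and Pou5f1, and the primitive endoderm, marked by Gata6, Gata4, Sox17 and Pdgfra. In outer cells low Hippo signalling lets the YAP and TEAD proteins act on Cdx2 and Gata3.

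The 6 embryos had 9818971 to 31536282 counts in gene rows, with 24541 to 28300 genes detected. In a principal component analysis of log2 CPM (counts scaled to a common library size, with TMM factors), component 1 held 70.5% of the variance and the blastocysts lay close together at 49.8 to 65.1. The morulae were spread from -115 for morula 2 through -63.0 for morula 1 to 6.20 for morula 3, which stood nearest the blastocysts. Summed Y-linked expression was 0.0544, 225 and 0.130 CPM in morulae 1 to 3 and 298, 289.6 and 249.7 CPM in the blastocysts. All 3 blastocysts and 1 of 3 morulae thus held Y-linked RNA, so Y-linked RNA moved with stage. Counts are given below without morula 3 and with Y-linked expression as a covariate. None of 16 cumulus and granulosa cell genes reached the filter for testing, and of 4 sperm genes only Tnp2 did, at 0 to 0.323 CPM. The log2 ratio of gene counts to ERCC counts, a measure of polyA RNA per embryo, was 7.09, 5.997 and 7.40 in the morulae and 6.43, 6.64 and 6.64 in the blastocysts. The groups overlapped: the difference was -0.26 (exact two-sided permutation test, p = 0.5, with 0.1 the smallest p that 20 splits allow).

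**Figure D1:**
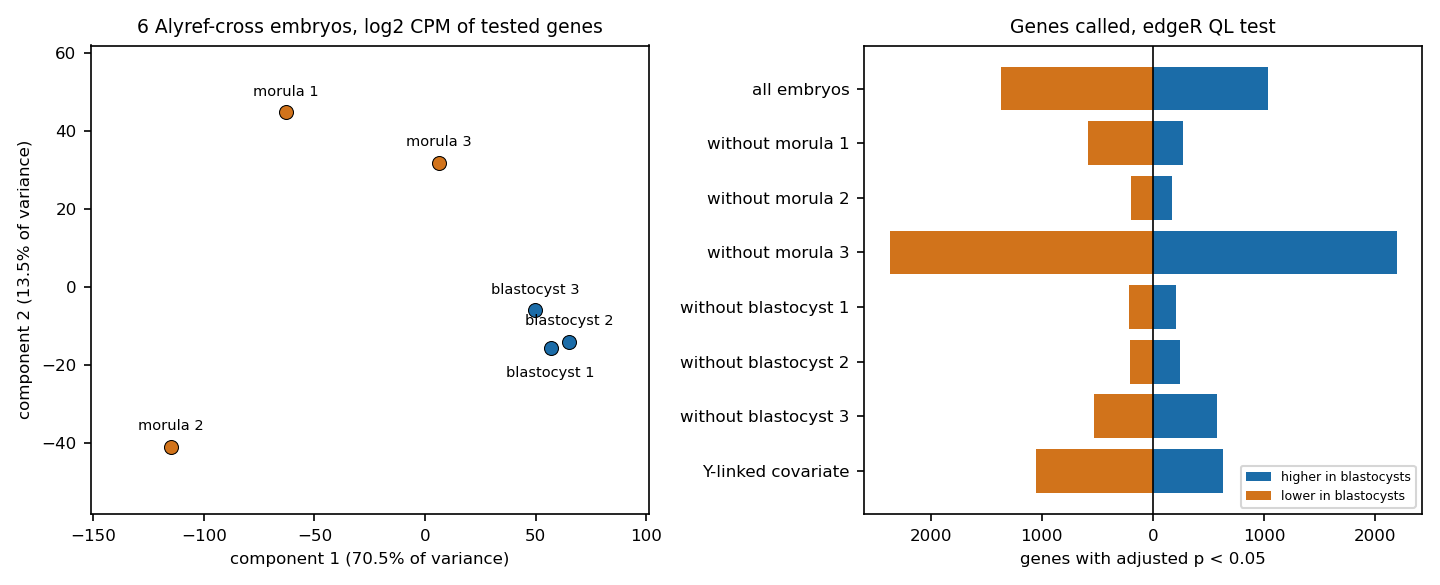
Left, the 6 Alyref-cross embryos on the first principal components of log2 CPM of the tested genes, with the percent of variance on each axis (orange, morulae; blue, blastocysts). Right, the number of genes called higher (blue, to the right) or lower (orange, to the left) in blastocysts with all embryos, without each embryo in turn, and with Y-linked expression as a covariate; leaving out morula 3, which lies nearest the blastocysts, raised the count from 2402 to 4560.

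Of 18410 genes tested, 2402 (13%) differed between blastocysts and morulae at an adjusted p under 0.05 (edgeR quasi-likelihood F test, Benjamini-Hochberg over all genes tested), and only these are named as called. In blastocysts 1035 genes (5.62%) were higher and 1367 (7.43%) were lower. Changes of at least 2-fold made up 841 of the rises and 1131 of the falls, and changes of at least 8-fold made up 143 and 332. The 3 blastocysts and 3 morulae did not overlap in FPKM for 2236 of the called genes. Over all genes tested, groups that did not overlap were found for 21% in the direction of higher values in blastocysts and for 16.5% in the lower direction. Protein-coding genes were called in 802 cases higher and 970 lower of 11518, and long intergenic RNAs in 22 higher and 66 lower of 689.

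The number of calls rested on the spread shared by all 19 embryos and on single embryos. With the 6 compared embryos alone the same test called 24 genes, 20 of them among the 2402. Without morula 3 the test called 4560 genes, 2193 higher (11.9%) and 2367 lower (12.9%), which included 2327 of the 2402. Without any of the other embryos it called between 370 (no morula 2) and 1104 (no blastocyst 3), with 176 to 576 higher and 194 to 580 lower. In 82.2% of the called genes morula 3 was the morula nearest the blastocysts, at a median position of 0.496 on a scale from the mean of morulae 1 and 2 (0) to that of the blastocysts (1). The genes called in each of the 6 fits without 1 embryo numbered 281, of which 151 were higher and 130 lower. With Y-linked expression as a covariate 1689 genes were called, 634 higher and 1055 lower, and 1500 of the 1689 were among the 2402. Scaling to the ERCC counts in place of TMM shifted the median log2 fold change of all genes from -0.04 to -0.34 and left 352 calls, 31 higher and 321 lower. limma on log2(FPKM + 1), where FPKM is scaled to library totals without TMM factors, called 1549 higher and 975 lower. The DESeq2 Wald test called 1786 higher and 1976 lower. The balance of rises and falls thus turned in the FPKM fit, where scaling and test both differed from the main fit. Directions below are relative to the TMM scale unless ERCC scaling is named. Counts of called list members below stand against 5.62% higher and 7.43% lower over all genes. List counts in the other fits stand against the totals of the same fit. The lists were chosen with earlier results of these data known, so the shares of members called are descriptions.

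**Figure D2:**
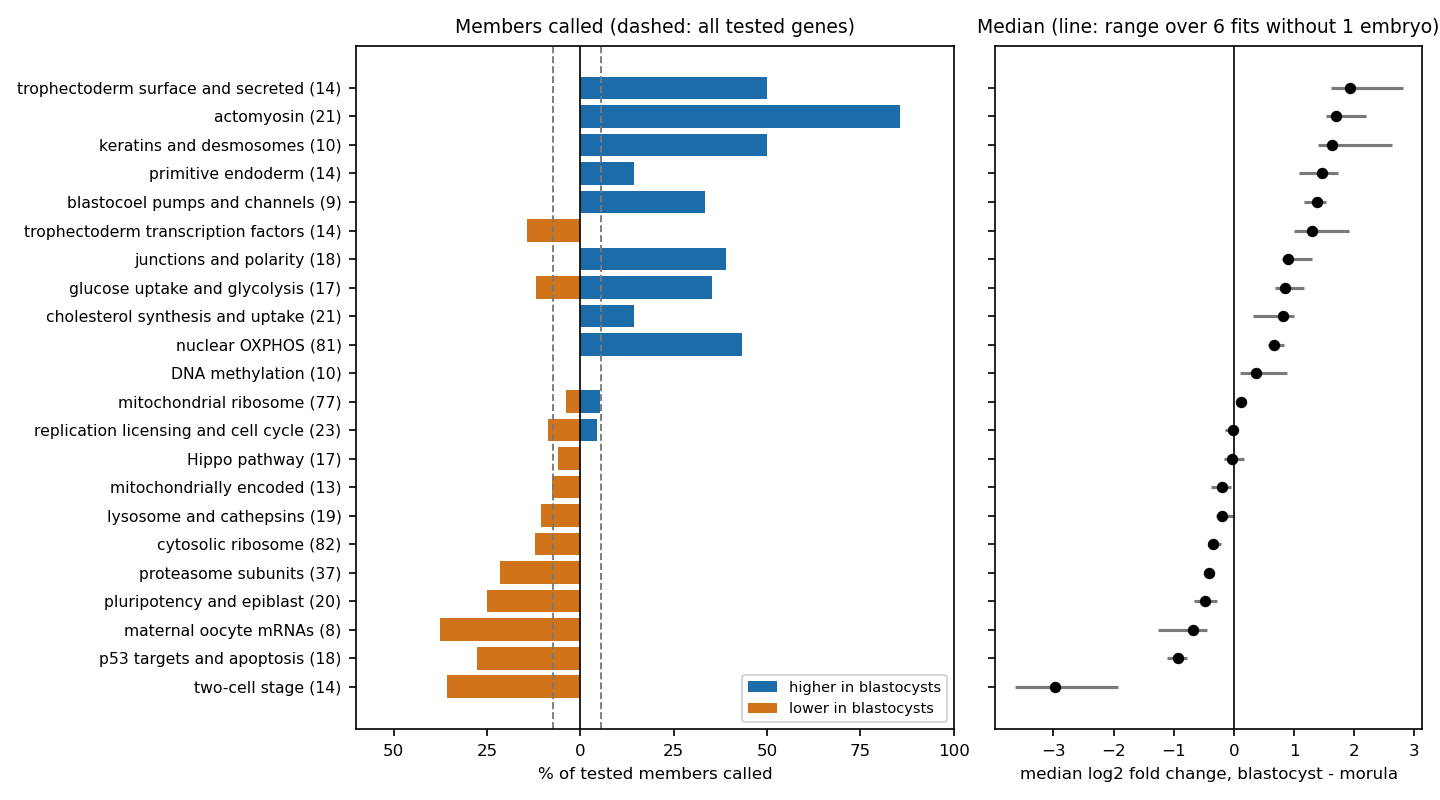
Left, percent of the tested members of each gene list (number tested in brackets) called higher (blue) or lower (orange) in blastocysts, with dashed lines at the 5.62% and 7.43% of all tested genes. Right, the median log2 fold change of each list (points) with the range of that median over the 6 fits that leave out 1 embryo (lines). Actomyosin has the largest share of called members, 18 of 21, and the lists were chosen with earlier results of these data known.

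Genes of the actomyosin cytoskeleton had the largest share of called members among the lists shown in the plot of calls by list. Of 21 tested members 18 were higher in blastocysts and none was lower, against 5.62% higher over all genes, with a median log2 fold change of 1.70. The list was chosen with earlier results known, and it holds Actc1 and Myl9, which are among the 8 largest rises named here. The list mean in log2(CPM + 1) was 5.52, 5.35 and 5.97 in the morulae and 7.86, 7.40 and 7.43 in the blastocysts, with no overlap. WT blastocysts held 7.35, 7.47 and 7.67, while the Gabpb1 cross had 6.39 and 6.14 in morulae and 6.87, 6.78 and 6.56 in blastocysts. Without morula 3 the count was 17, and without any other embryo 9 to 15. It was 14 with the Y-linked covariate and 4 with ERCC scaling. Actn4 (adjusted p = 0.0549), Acta1 (0.0968) and Actn1 (0.206), also with higher means in blastocysts, did not pass the test. Tagln, Cnn1 and Acta2, which mark smooth muscle, did not reach the filter. Each value is of a whole embryo, so fewer cells of a type and less RNA per cell cannot be told apart, here and below.

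Actc1, cardiac alpha-actin, had no read in any of the 3 morulae. The blastocysts held 78.3, 14.7 and 17.1 CPM. Set against a floor of 3 counts per library, this is at least 180.1-fold higher, or at least 77.9-fold when the highest blastocyst is left out (adjusted p = 0.00577). WT blastocysts held 21.2, 57.3 and 91.8 CPM, and blastocysts of the Gabpb1 cross 0.247, 0.711 and 0 CPM. Myl9, a regulatory light chain of myosin II, was at 1.14, 0 and 0.454 CPM in morulae and 58.7, 35.6 and 66.1 CPM in blastocysts (log2 fold change 6.54, SE 1.02, adjusted p = 0.00759). In the Gabpb1 cross it was at 0.284 and 0.380 CPM in the morulae and 21.2, 2.13 and 4.82 CPM in the blastocysts, with each of these blastocysts above both morulae and below every Alyref-cross blastocyst. Both genes were called in each of the 6 fits without 1 embryo.

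Most other members differed by smaller factors. Cnn2, a calponin that binds actin filaments, was at 40.5, 30.8 and 33.2 CPM in morulae and 366, 320.3 and 206 CPM in blastocysts (log2 fold change 3.09, SE 0.40, adjusted p = 0.00432). Tpm1, a tropomyosin that lies along the filament, was at 83.1, 131 and 236 CPM and 733, 676 and 537 CPM (log2 fold change 2.11, SE 0.30, adjusted p = 0.00577). For both genes every blastocyst was above every morula, and morula 3 was the highest morula for Tpm1 but not for Cnn2. The myosin light chain Myl12a rose from 279.9, 202 and 296 to 902, 706 and 656 CPM (log2 fold change 1.54, SE 0.24, adjusted p = 0.00759). Filamin A (Flna), which cross-links filaments, was at 3.15, 0.506 and 7.84 and 63.8, 45.9 and 45.9 CPM (log2 fold change 3.75, SE 0.77, adjusted p = 0.0107). The groups did not overlap for either. Actb, a cytoplasmic actin, was at 2091, 1565 and 2475 CPM in morulae and 4639, 3313 and 3187 CPM in blastocysts (log2 fold change 0.86, SE 0.23, adjusted p = 0.0276). The other cytoplasmic actin, Actg1, was 1.94-fold higher (adjusted p = 0.0106). The non-muscle myosin heavy chains Myh9 and Myh10 were 4.98-fold and 3.26-fold higher (adjusted p = 0.0235 and 0.0228). Dstn, an actin-depolymerising protein outside the list, was named for its small p: it was at 214, 303 and 269.5 CPM in morulae and 1110.3, 842 and 725 CPM in blastocysts (log2 fold change 1.77, SE 0.24, adjusted p = 0.00505).

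Promoters were read for the actomyosin list and for trophectoderm transcription factors, keratins and desmosomes, and pumps and channels. RefSeq windows of 300 bases, from 250 before to 50 after the gene start on GRCm38.p6, were found for 19 of the 21 tested actomyosin members. A CArG box, known as the binding sequence of serum response factor and common near actin cytoskeleton genes, was present on either strand in 7 of the 19 (36.8%) and in 1.81% of 27025 genes with a window. Those 7 were Actc1, Myl9, Cnn2, Actg1, Vcl, Myl6 and Acta1, and Acta1 is the 1 of them that was not called. The windows of 5 called members are shown, with the box in capitals, in the direction of transcription and with up to 35 bases before and 25 after it. None of the bases shown lies in a deposited exon of its gene. The letters are a description of the reference, not a measurement of binding.
Actc1: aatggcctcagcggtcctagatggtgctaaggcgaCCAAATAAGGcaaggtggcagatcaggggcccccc
Myl9: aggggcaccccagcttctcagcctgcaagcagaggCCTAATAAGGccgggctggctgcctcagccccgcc
Cnn2: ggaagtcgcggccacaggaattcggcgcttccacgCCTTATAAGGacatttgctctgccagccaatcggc
Actg1: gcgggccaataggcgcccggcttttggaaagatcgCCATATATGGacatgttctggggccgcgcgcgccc
Vcl: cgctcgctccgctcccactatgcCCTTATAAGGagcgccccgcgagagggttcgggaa
The Actc1 window is chr2:114052888-114052957 on the minus strand, with the box 47 bases before the RefSeq start. The deposited Actc1 model starts further upstream, at base 114053548, so there the box lies 626 bases inside the gene and outside its exons. The other 4 boxes lie before the deposited start, and distances are to the RefSeq start. For Myl9 it is chr2:156775268-156775337 (plus, box at 161 bases before) and for Cnn2 chr10:79988509-79988578 (plus, 56 bases). For Actg1 it is chr11:120348551-120348620 (minus, 90 bases) and for Vcl, which encodes vinculin of cell adhesions, chr14:20929148-20929205 (plus, 227 bases). The motif GGAATG, searched on both strands and known as a core recognised by TEAD proteins, was in the windows of 8 of the 19 genes (42.1%) and in 16.6% of all genes. Vcl and Acta1 held both motifs. GGAATG was in 2 of 9 genes with windows of trophectoderm transcription factors, in 0 of 5 of keratin and desmosome genes, and in 2 of 6 of pump and channel genes, while the CArG box was in 0, 0 and 1 of these.

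**Figure D3:**
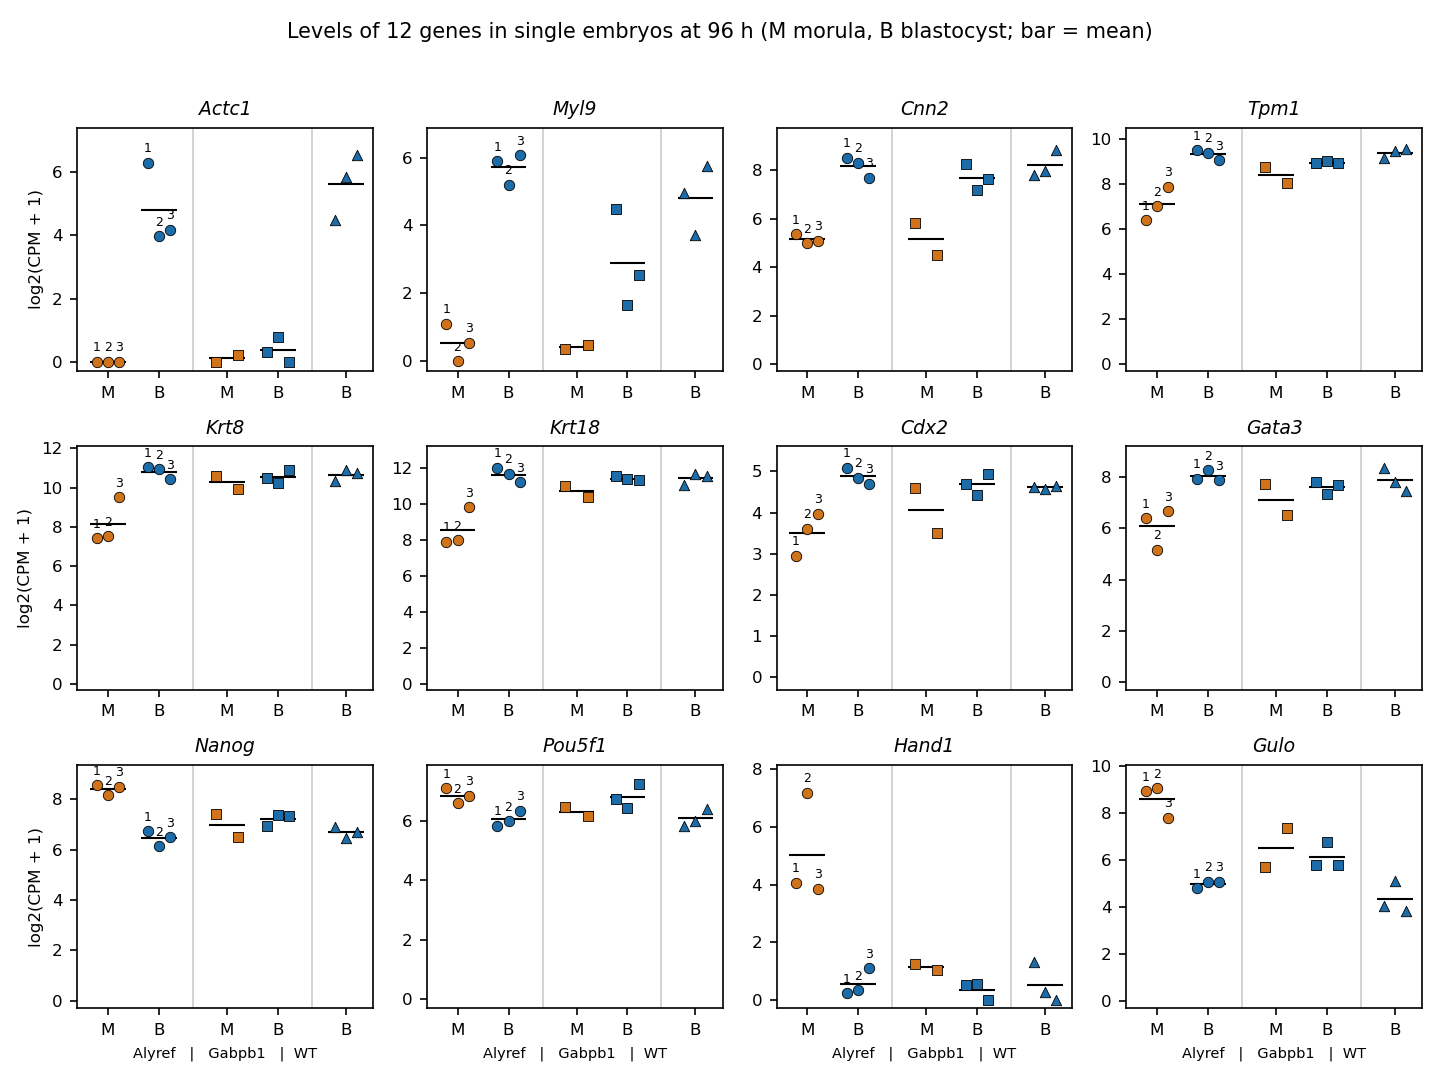
Level of 12 genes as log2(CPM + 1) in single embryos (points; circles, Alyref cross; squares, Gabpb1 cross; triangles, WT parents; orange, morulae; blue, blastocysts; bars, means; numbers, embryos of the Alyref cross). Actc1 is at 0 in the 3 Alyref-cross morulae and at 14.7 to 78.3 CPM in their blastocysts, Nanog is lower in the 3 blastocysts than in the 3 morulae, and for Krt8 and Krt18 morula 3 lies between the other morulae and the blastocysts.

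Of 10 tested keratin and desmosome genes 5 rose in blastocysts (Krt7, Krt8, Krt18, Pkp2 and Jup) and none fell. Krt18 and Krt8 are partners in the keratin filaments of simple epithelia. Krt18 was at 238, 254 and 907 CPM in morulae and 4118, 3266 and 2328 CPM in blastocysts (log2 fold change 2.80, SE 0.77, adjusted p = 0.0297). Krt8 was at 171, 184 and 735 and 2085, 1974 and 1368 CPM (log2 fold change 2.32, SE 0.60, adjusted p = 0.0236). In both cases morula 3 was well above the other morulae and still under every blastocyst. Krt7, another keratin of simple epithelia, went from 1.14, 0.422 and 7.26 to 77.6, 83.7 and 54.6 CPM (log2 fold change 4.60, SE 0.83, adjusted p = 0.00780) and was called in each fit without 1 embryo. Pkp2, a desmosomal plaque protein, was 2.88-fold higher (adjusted p = 0.0151). The list had 8 calls without morula 3, 1 to 4 without any other embryo, and 4 with the Y-linked covariate. The mean of this list in log2(CPM + 1) was 3.99, 4.29 and 5.93 in the morulae and 6.97, 6.89 and 6.69 in the blastocysts. In the Gabpb1 cross the stages overlapped, at 6.88 and 6.71 in morulae and 6.34, 6.86 and 6.81 in blastocysts.

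Junction and polarity genes gave 7 rises and no fall among 18 tested, and all 18 had a positive log2 fold change. Cldn7, a claudin of epithelial tight junctions, was at 207, 177 and 315 CPM in morulae and 647, 712 and 408 CPM in blastocysts (log2 fold change 1.34, SE 0.22, adjusted p = 0.00759). It was called in each fit without 1 embryo. Cdh1, E-cadherin, was at 59.7, 65.3 and 144 CPM in morulae and 249, 259 and 256 CPM in blastocysts, a 2.84-fold difference (adjusted p = 0.0273). F11r, Ctnna1, Cldn4 and Pard3 rose by 1.76, 1.97, 1.96 and 2.60-fold. Ctnnb1 (adjusted p = 0.600), Tjp1 (0.298), Ocln (0.809) and Prkci (0.624) did not pass. The count was 8 without morula 3, 1 to 5 without any other embryo and 5 with the Y-linked covariate. In the Gabpb1 cross the list mean in log2(CPM + 1) overlapped between stages, at 6.32 and 6.47 in morulae and 6.52, 6.45 and 6.63 in blastocysts. Cldn7 was there at 473 and 525 CPM in morulae and 460, 451 and 375 CPM in blastocysts. Its difference between the crosses did not pass (adjusted p = 0.165, edgeR).

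Of the genes that pump ions and water, 3 of 9 tested were higher and none was lower. Atp1b1, the beta-1 subunit of the Na/K-ATPase, was at 36.8, 18.1 and 55.3 CPM in morulae and 182, 152 and 189 CPM in blastocysts (log2 fold change 2.24, SE 0.62, adjusted p = 0.0294). It overlaps Nme7 on the opposite strand, and no strand setting is given for the counts. The water channel Aqp8 was at 0, 0 and 2.33 CPM in morulae and 14.0, 15.5 and 20.2 CPM in blastocysts (log2 fold change 4.38, SE 1.14, adjusted p = 0.0248). The groups did not overlap for either, but both were called in only 1 of the 6 fits without 1 embryo, the fit without morula 3. The water channel genes Aqp3 and Aqp9 were not called. Aqp3 was at 222, 322 and 105 CPM in morulae and 178, 239 and 149 CPM in blastocysts (log2 fold change -0.20, SE 0.42, adjusted p = 0.783), with overlap, and Aqp9 had an adjusted p of 0.602 (edgeR). Atp1b3, another beta subunit, differed by -0.25 (SE 0.20, adjusted p = 0.398). The list had 5 calls without morula 3, 0 or 1 without any other embryo, and 1 with the Y-linked covariate. In the Gabpb1 cross its mean in log2(CPM + 1) overlapped between stages, at 5.62 and 5.86 in morulae and 5.98, 5.70 and 5.90 in blastocysts.

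Surface and secreted products of the trophectoderm rose in 7 of 14 cases, with none lower. Fabp3, a fatty acid-binding protein, was at 338, 343 and 1059 CPM in morulae and 3611, 3324 and 2299 CPM in blastocysts (log2 fold change 2.41, SE 0.56, adjusted p = 0.0166), and it overlaps Zcchc17 on the opposite strand. The tetraspanin Tspan8 was at 43.0, 18.1 and 91.1 and 990.4, 937 and 577 CPM (log2 fold change 4.04, SE 0.93, adjusted p = 0.0153). Fgfr2, the receptor through which FGF4 from the inner cells acts on trophectoderm, was at 31.1, 23.4 and 42.8 and 105, 102 and 112 CPM (log2 fold change 1.72, SE 0.40, adjusted p = 0.0164). Its deposited model overlaps Ctbp2 on the same strand, so the split of reads between Fgfr2 and Ctbp2 is uncertain. Plac1 was 22.4-fold higher and Sct, which encodes secretin, 7.09-fold (adjusted p = 0.0275 and 0.0160). Fgfbp1 and, with overlap between the stages, the glucose transporter Slc2a3 were the other rises. For Fabp3 and Tspan8 morula 3 was the highest morula and still below every blastocyst. The count was 9 without morula 3, 0 to 4 without any other embryo and 2 with the Y-linked covariate.

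Of 14 tested transcription factors of the trophectoderm edgeR called 0 higher and 2 lower in blastocysts, while 12 had a positive log2 fold change and the list median was 1.30. At an unadjusted p under 0.05 there were 8 higher, against 2585 of the 18410 genes tested. DESeq2 called 6 higher, and limma on log2(FPKM + 1) called 8, so the call for this list depended on the test. Cdx2, which specifies the lineage, was at 6.74, 11.1 and 14.7 CPM in morulae and 32.9, 27.8 and 25.0 CPM in blastocysts (log2 fold change 1.40, SE 0.45, adjusted p = 0.0532). Gata3 was at 83.6, 34.9 and 99.8 and 244, 306 and 234 CPM (log2 fold change 1.84, SE 0.61, adjusted p = 0.0574). Eomes was at 4.62, 1.01 and 26.1 and 58.2, 82.8 and 49.4 CPM (log2 fold change 2.58, SE 0.89, adjusted p = 0.0642). For all 3 the groups did not overlap and morula 3 was the highest morula. Without morula 3 the test called 7 of the 14 higher, and without any other single embryo 0. Tead4, known to act upstream of Cdx2, was at 107, 62.2 and 73.2 CPM in morulae and 96.9, 98.5 and 95.4 CPM in blastocysts, with overlap (adjusted p = 0.540).

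The 2 lower factors were Hand1 and Tfap2c. Hand1, a basic helix-loop-helix factor needed for trophoblast giant cells, was at 15.7, 145 and 13.5 CPM in morulae and 0.161, 0.248 and 1.14 CPM in blastocysts (log2 fold change -7.01, SE 1.40, adjusted p = 0.00956). All 3 morulae were far above all 3 blastocysts, and morula 2 was the highest. The WT blastocysts (1.47, 0.192 and 0 CPM) and the Gabpb1-cross morulae (1.35 and 1.06 CPM) and blastocysts (0.412, 0.474 and 0 CPM) lay at the level of the blastocysts. Tfap2c was at 91.5, 109 and 66.5 and 37.3, 39.5 and 40.2 CPM (log2 fold change -1.19, SE 0.29, adjusted p = 0.0184). Of 17 tested Hippo pathway genes 0 were higher and 1 was lower (5.88%, under the 7.43% of all genes). The lower gene was Wwtr1, which encodes the YAP relative TAZ, at 152, 250.5 and 165 and 101, 103 and 95.7 CPM (log2 fold change -0.92, SE 0.26, adjusted p = 0.0344). Yap1 (adjusted p = 0.567) and Amotl2 (0.0774) did not pass, and Lats2 is counted under 2 identifiers, neither called.

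Among 20 pluripotency and epiblast genes 5 were lower in blastocysts and none was higher. Nanog was at 375, 284 and 361 CPM in morulae and 105, 69.5 and 89.9 CPM in blastocysts (log2 fold change -1.95, SE 0.25, adjusted p = 0.00432). The lowest morula was well above the highest blastocyst, and Nanog was called in each of the 6 fits without 1 embryo. WT blastocysts held 119, 87.8 and 104 CPM. In the Gabpb1 cross, where morulae held 171 and 89.1 and blastocysts 122, 165 and 159.8 CPM, the stages overlapped. Pou5f1, the Oct4 gene, was at 135, 95.0 and 113 and 55.6, 61.8 and 79.3 CPM, a much smaller difference (log2 fold change -0.80, SE 0.24, adjusted p = 0.0421), and it overlaps Gm19553 on the opposite strand. In FPKM the stages overlapped for Pou5f1. It was called in 1 of the 6 fits without 1 embryo, that without morula 3. With the Y-linked covariate and with ERCC scaling it was not called (adjusted p = 0.118 and 0.364, edgeR). Klf2, Dppa4 and Tdh were lower by 3.70, 2.32 and 4.0-fold (adjusted p = 0.0248, 0.0266 and 0.0482). Sox2, at 2.07, 0 and 20.4 CPM in morulae and 4.42, 6.52 and 6.83 CPM in blastocysts, was not called (log2 fold change -0.35, SE 1.33, adjusted p = 0.890), and its sign turned without morula 3. Zfp42 and Sall4 had log2 fold changes of 0.01 (SE 0.24) and -0.11 (SE 0.23). The count was 5 without morula 3, 1 to 3 without any other embryo and 4 with the Y-linked covariate.

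Of 14 tested primitive endoderm genes 2 were higher in blastocysts (14.3%, against 5.62% of all genes), both of them laminin chains of the basement membrane. Lamc1 was at 12.2, 6.25 and 23.8 CPM in morulae and 69.9, 62.7 and 55.4 CPM in blastocysts (log2 fold change 2.15, SE 0.51, adjusted p = 0.0169). Lama1 was at 0.0544, 0 and 4.79 and 35.6, 34.7 and 26.6 CPM (log2 fold change 4.30, SE 1.24, adjusted p = 0.0349), under the 100.3, 137 and 144 CPM of WT blastocysts. The factors that mark the lineage were not called. Gata6 was at 120.3, 128 and 128 CPM in morulae and 94.5, 85.8 and 93.9 CPM in blastocysts (log2 fold change -0.45, SE 0.24, adjusted p = 0.210). Gata4 was at 0.435, 5.49 and 1.68 and 5.42, 6.46 and 11.9 CPM and Sox17 at 2.23, 0 and 16.1 and 23.2, 14.5 and 38.0 CPM (adjusted p = 0.214 and 0.321). Pdgfra overlapped between the stages (adjusted p = 0.953). The list had 3 calls without morula 3, 0 or 1 without any other embryo, and 0 with the Y-linked covariate.

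**Figure D4:**
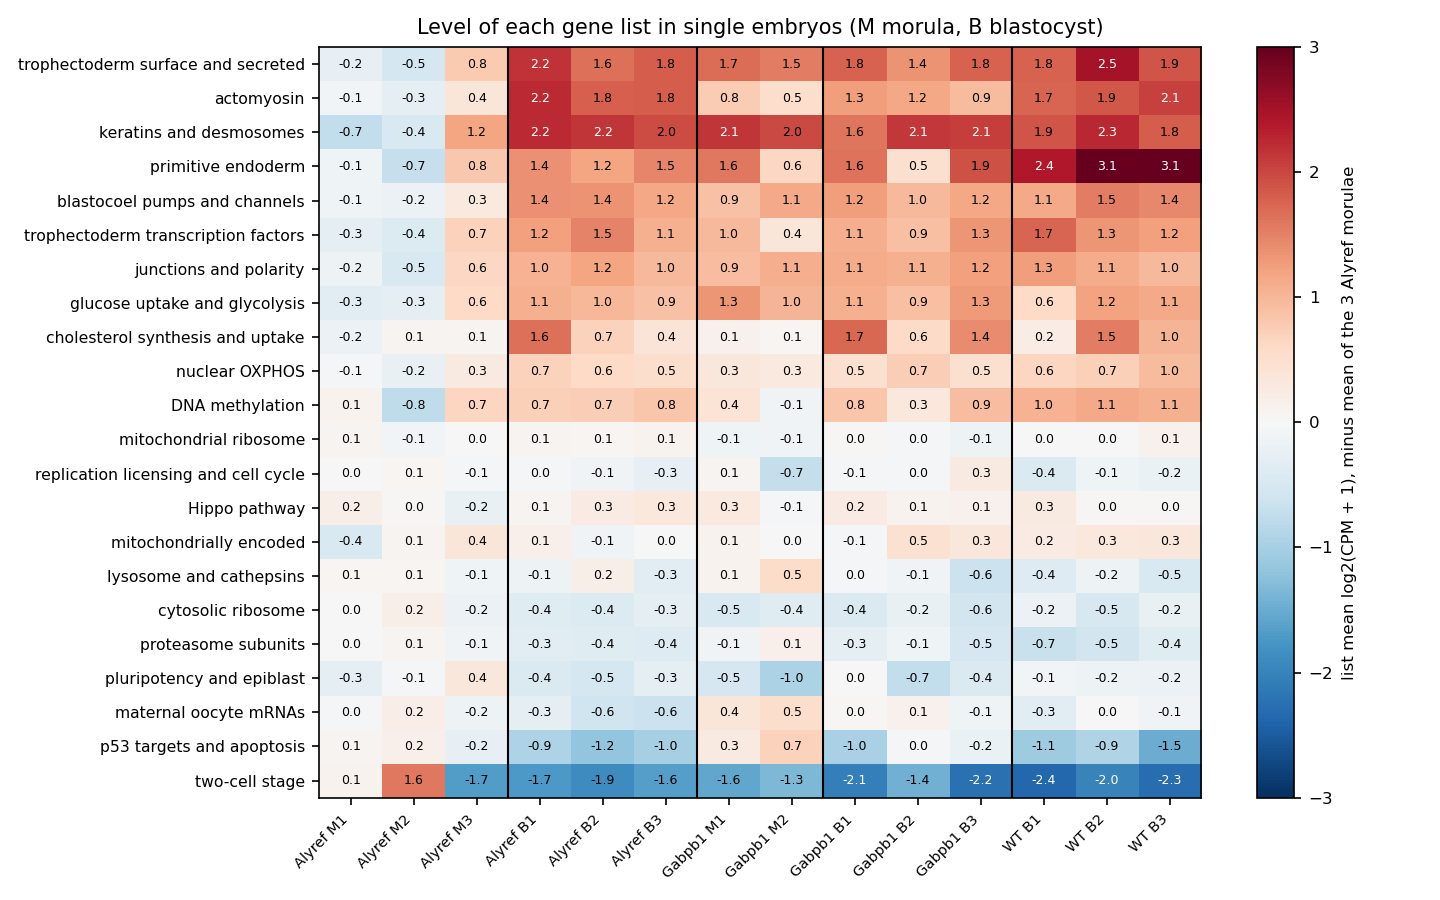
Mean log2(CPM + 1) of each gene list in single embryos (columns; M morula, B blastocyst), minus the mean of the 3 Alyref-cross morulae, as colour and as printed numbers. Alyref-cross morulae 1 and 2 stand apart from the Alyref-cross blastocysts in the epithelial, actomyosin and 2-cell-stage lists, and morula 3 lies between them or with the blastocysts.

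Of 14 tested genes known for the burst of expression at the 2-cell stage 5 were lower in blastocysts and none was higher, and all 14 had a negative log2 fold change. The 5 were Obox6, Tcstv3, Tdpoz4, Usp17lb and Sp110. Obox6 was at 179, 484 and 22.7 CPM in morulae and 1.90, 9.44 and 2.85 CPM in blastocysts (log2 fold change -5.60, SE 1.24, adjusted p = 0.0138). Sp110 was at 198, 921 and 63.2 and 57.4, 27.9 and 62.0 CPM (log2 fold change -3.0, SE 0.86, adjusted p = 0.0340), with the lowest morula close to the highest blastocyst. For Tcstv3 the morulae held 2.39, 148 and 0.194 CPM and the blastocysts 0, 0.0621 and 0 CPM (adjusted p = 0.0272). Morula 2 alone carried most of the Tcstv3 and Tdpoz4 reads, and morula 3 was as low as the blastocysts for both. The list had 7 calls without morula 3 and 5 with the Y-linked covariate. Without morula 2 none of the list was called and the log2 fold change of Tdpoz4 became 0.78. The list mean in log2(CPM + 1) was 3.16, 4.64 and 1.40 in the morulae and 1.35, 1.17 and 1.42 in the blastocysts. Zscan4 genes, the best known of this class, did not reach the filter, with at most 33 counts in an embryo. Tcstv, Usp17l, Tdpoz and Obox genes belong to families of near-identical copies, so the split of reads between members is uncertain.

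Of 20 listed maternal oocyte mRNAs only 8 reached the filter. Of these 3 were lower in blastocysts and 0 higher, against 7.43% and 5.62% of all genes. The log2 fold change was negative for 5 and positive for 3, and DESeq2 called 3 lower and 1 higher. Padi6, of the subcortical maternal complex, was at 22.5, 32.0 and 5.96 CPM in morulae and 2.74, 3.97 and 3.70 CPM in blastocysts (log2 fold change -2.54, SE 0.63, adjusted p = 0.0213). Zp3, a zona pellucida protein, was at 4.40, 4.56 and 3.95 and 0.677, 0 and 0.474 CPM (log2 fold change -3.41, SE 0.79, adjusted p = 0.0163). Khdc3 was 1.59-fold lower (adjusted p = 0.0466). It shares reads on the same strand with Gm20509 and was called in none of the fits without 1 embryo. The list had 2 calls without morula 3 and 0 or 1 without any other embryo.

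Of 18 tested p53 targets and genes of apoptosis 5 were lower in blastocysts and none was higher. The log2 fold change was negative for 17 of the 18, with a median of -0.94. Bcl2l11, the pro-apoptotic BIM, was at 13.2, 23.8 and 19.5 CPM in morulae and 4.13, 5.59 and 6.74 CPM in blastocysts (log2 fold change -1.78, SE 0.46, adjusted p = 0.0247). Trp53inp1 was at 70.8, 111 and 61.6 and 20.7, 16.0 and 20.9 CPM (log2 fold change -2.08, SE 0.57, adjusted p = 0.0300). The death receptor Eda2r was at 70.9, 58.8 and 25.3 and 5.71, 5.59 and 7.31 CPM (log2 fold change -3.06, SE 0.87, adjusted p = 0.0326). Bbc3, which encodes PUMA, and Sesn2 were 3.21 and 2.16-fold lower. Cdkn1a, which encodes the cell cycle inhibitor p21, was at 185, 329 and 132 CPM in morulae and 47.6, 22.2 and 58.1 CPM in blastocysts, without overlap, but missed the threshold (adjusted p = 0.0539). For Eda2r and Cdkn1a morula 3 was the morula nearest the blastocysts. The count was 9 without morula 3, 0 or 1 without any other embryo, and 1 with the Y-linked covariate. In the Gabpb1 cross the list mean was 5.40 and 5.83 in log2(CPM + 1) in morulae and 4.16, 5.08 and 4.94 in blastocysts.

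Genes of glucose use moved in both directions, with 6 of 17 tested higher and 2 lower. Pgk1 was at 8.75, 11.4 and 23.1 CPM in morulae and 89.8, 65.1 and 59.1 CPM in blastocysts (log2 fold change 2.31, SE 0.43, adjusted p = 0.00780). Gapdh was at 85.6, 66.9 and 168 and 686, 418 and 384 CPM (log2 fold change 2.22, SE 0.44, adjusted p = 0.00938). Tpi1 was at 10.9, 19.2 and 154 and 536, 444 and 321 CPM (log2 fold change 2.82, SE 0.70, adjusted p = 0.0206). These 3 enzymes act on triose phosphates and their products in glycolysis, and Pgk1 and Gapdh were called in each fit without 1 embryo. All 3 had no overlap, with morula 3 the highest morula. Hexokinases went in opposite directions: Hk2 was at 22.9, 9.03 and 66.6 CPM in morulae and 219.8, 215 and 217 CPM in blastocysts (log2 fold change 2.72, SE 0.77, adjusted p = 0.0327). Hk1 was at 19.8, 69.1 and 18.5 and 5.06, 5.09 and 4.55 CPM (log2 fold change -2.86, SE 0.65, adjusted p = 0.0145). Pgam1 was 2.11-fold lower (adjusted p = 0.0313), and Gpi1 and Slc2a3 were 2.43 and 1.95-fold higher. Pgk1, Gapdh, Tpi1 and Pgam1 have many processed pseudogenes, so their counts are uncertain where reads map to more than 1 copy. Without morula 3 the calls were 8 higher and 2 lower, and without any other embryo 2 or 3 higher and 0 or 1 lower. With the Y-linked covariate they were 3 and 1, and Hk2 and Pgam1 were no longer called (adjusted p = 0.141 and 0.0912). In the Gabpb1 cross the list mean in log2(CPM + 1) overlapped between stages, at 6.48 and 6.19 in morulae and 6.23, 6.06 and 6.45 in blastocysts.

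Many nuclear genes for the respiratory chain and ATP synthase, the machinery of oxidative phosphorylation (OXPHOS), rose by small amounts. Of 81 tested 35 were higher and 0 lower. In FPKM 67 had no overlap in that direction, against 21% of all genes, and the median log2 fold change was 0.67. The called members differed by 0.58 to 1.39 on the log2 scale. They came from every complex: 15 of 36 genes of complex I, 2 of 4 of complex II, 4 of 9 of complex III, 5 of 16 of complex IV and 9 of 16 of the ATP synthase. Ndufa8, of complex I, was at 105, 120.0 and 125 CPM in morulae and 253, 223 and 217 CPM in blastocysts (log2 fold change 0.99, SE 0.17, adjusted p = 0.00773). Ndufs6 was at 184, 208 and 206 and 366, 333 and 354 CPM (log2 fold change 0.82, SE 0.16, adjusted p = 0.00955). Both were called in each fit without 1 embryo. Cox6b1 of complex IV was 1.75-fold and Atp5o of the ATP synthase 1.75-fold higher (adjusted p = 0.0176 and 0.0171). The list mean in log2(CPM + 1) was 7.27, 7.12 and 7.60 in the morulae and 8.03, 7.93 and 7.86 in the blastocysts. The count was 51 without morula 3, 2 to 14 without any other embryo and 18 with the Y-linked covariate. With ERCC scaling no member was called and the median was 0.28, against -0.34 over all genes.

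Of the 13 mRNAs encoded in mitochondrial DNA none was called higher by edgeR, and 2 had an unadjusted p under 0.05 in that direction. Over all 18410 genes 2585 did. mt-Nd2, a subunit of complex I, was lower, at 1869.8, 2825 and 1973 CPM in morulae and 1485, 1104 and 1472 CPM in blastocysts (log2 fold change -0.71, SE 0.23, adjusted p = 0.0486). mt-Co1 was at 3718, 3887 and 10859 and 10961, 12291 and 10898 CPM and was not called (adjusted p = 0.141), with morula 3 as high as the blastocysts. mt-Nd2 was not called with the Y-linked covariate or without any 1 of the 6 compared embryos other than morula 3. Of 77 mitochondrial ribosomal protein genes 4 were higher and 3 lower, shares near those of all genes, and the list median of 0.11 turned to -0.24 with ERCC scaling.

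Cholesterol genes gave 3 rises among 21 tested (14.3%, against 5.62% of all genes). Mvk, mevalonate kinase, was at 2.66, 1.77 and 11.5 CPM in morulae and 51.4, 23.1 and 19.1 CPM in blastocysts (log2 fold change 2.55, SE 0.69, adjusted p = 0.0282). Pmvk, the kinase of the next step, was at 39.8, 33.9 and 46.3 and 99.8, 73.4 and 83.7 CPM (log2 fold change 1.10, SE 0.31, adjusted p = 0.0316). Blastocyst 1 held the highest value of all 6 embryos for both. The regulator Srebf2 was at 1.09, 0.844 and 6.54 and 25.3, 18 and 14.2 CPM and missed the threshold (adjusted p = 0.0507). The cholesterol count was 7 without morula 3, 1 or 2 without any other embryo and 1 with the Y-linked covariate. Of 19 lysosomal genes 2 were lower, Lamp2 (278, 287 and 228 CPM in morulae and 69.5, 94.4 and 70.0 CPM in blastocysts) and Ctsz (252, 383 and 97.5 and 45.9, 79.2 and 63.3 CPM), with adjusted p of 0.0184 and 0.0277. This share was near the 7.43% of all genes, and both were called in 1 of the 6 fits without 1 embryo, that without morula 3. In that fit 3 lysosomal genes were higher and 3 lower.

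Of 82 cytosolic ribosomal protein genes 10 were lower in blastocysts and 0 higher (7.43% lower over all genes), with a median log2 fold change of -0.35. Rpl5 was at 1007, 1372 and 775 CPM in morulae and 531, 521 and 555 CPM in blastocysts (log2 fold change -0.97, SE 0.22, adjusted p = 0.0143), and Rps6 at 895, 1010.5 and 745 and 585, 532 and 613 CPM (log2 fold change -0.61, SE 0.15, adjusted p = 0.0218). Rpl7l1, a relative of Rpl7, was 1.95-fold lower and was called in each fit without 1 embryo. Ribosomal protein genes have many processed pseudogenes that can share their reads. Of 37 proteasome subunits 8 were lower and 0 higher, with a median of -0.42. Psmd7 of the regulatory particle was at 752, 1047 and 572 and 340.2, 281 and 381 CPM (log2 fold change -1.24, SE 0.21, adjusted p = 0.00773). The ribosomal count was 23 without morula 3 and 1 to 3 without any other embryo, and the proteasome count 11 and 1. With the Y-linked covariate 6 and 4 were lower, and with ERCC scaling none of either. DESeq2 called 18 ribosomal and 10 proteasome genes lower, and limma on log2(FPKM + 1) called 3 of each.

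Replication and cell cycle genes were called at about the rate of all genes (13%). Of 23 tested 1 was higher and 2 were lower, against 5.62% and 7.43% of all genes. Ccne1, cyclin E1 of the G1/S transition, was at 373, 629 and 90.8 CPM in morulae and 60.7, 37.3 and 63.7 CPM in blastocysts (log2 fold change -2.76, SE 0.59, adjusted p = 0.0121). Ccna2 was at 738, 1010.0 and 302 and 297, 233 and 219.7 CPM (log2 fold change -1.45, SE 0.40, adjusted p = 0.0304) and overlaps Exosc9 on the opposite strand. For both, morula 3 was well under the other morulae. Ccnb2, a mitotic cyclin, was at 182, 144 and 175 and 385, 333 and 289 CPM (log2 fold change 1.01, SE 0.23, adjusted p = 0.0141). None of the 6 MCM helicase genes was called. None of 10 DNA methylation genes was called by edgeR, with 3 higher at an unadjusted p under 0.05 and 2 called higher by DESeq2. Over all 18410 genes these counts were 2585 and 1786. Dnmt3b came closest, at 34.5, 16.3 and 93.3 CPM in morulae and 188, 177 and 145 CPM in blastocysts, with an adjusted p of 0.0529.

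Outside the lists, the named rises of largest size among genes with a mean FPKM of at least 5 included Adh1, alcohol dehydrogenase 1, at 0.435, 0.0844 and 31.0 CPM in morulae and 515, 1313 and 379 CPM in blastocysts (log2 fold change 6.12, SE 1.89, adjusted p = 0.0444). It shares its position with Gm16559 on the opposite strand (0.0544, 0 and 3.56 and 61.7, 159 and 44.1 CPM). The X-linked neighbours Bex3 and Tceal9 were at 17.6, 5.66 and 8.55 and 11.3, 12.3 and 18 CPM in morulae. In blastocysts they held 558, 451 and 109 CPM (log2 fold change 5.13, SE 1.10, adjusted p = 0.0122) and 537, 407 and 152 CPM (log2 fold change 4.72, SE 1.37, adjusted p = 0.0354), with blastocyst 3 lowest for both. With the Y-linked covariate Bex3 was still called (adjusted p = 0.0304), while Tceal9 (log2 fold change 3.20, adjusted p = 0.180) and Adh1 (adjusted p = 0.194) were not. Tceal9 and Adh1 were called in 1 of the 6 fits without 1 embryo, that without morula 3. BC051665 was at 0, 1.52 and 3.56 and 150.4, 446 and 59.7 CPM (log2 fold change 7.03, SE 1.34, adjusted p = 0.00813). The protease gene Prss32 was at 0.0544, 0 and 3.24 and 33.0, 33.9 and 15.8 CPM (log2 fold change 4.63, SE 0.96, adjusted p = 0.0108). Rhbdl2, a rhomboid protease of the membrane, was among the rises named for the smallest p, at 7.94, 5.57 and 8.10 CPM in morulae and 60.0, 93.3 and 38.0 CPM in blastocysts (log2 fold change 3.14, SE 0.40, adjusted p = 0.00432).

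Among the falls, Gulo, the last enzyme of vitamin C synthesis in mice, was at 489, 527 and 223 CPM in morulae and 27.0, 32.9 and 33.0 CPM in blastocysts (log2 fold change -3.74, SE 0.53, adjusted p = 0.00553). Cul5, the scaffold of a ubiquitin ligase, was at 1051, 1569 and 383 and 173, 144 and 209 CPM (log2 fold change -2.51, SE 0.38, adjusted p = 0.00666). Rdm1, a RAD52-related gene, was at 119, 134 and 83.0 and 26.2, 34.6 and 37.3 CPM (log2 fold change -1.78, SE 0.22, adjusted p = 0.00432). These 3 had no overlap and were called in each fit without 1 embryo. The named falls of largest size were in genes of low level in blastocysts. 1700013H16Rik was at 0.435, 35.7 and 40.6 CPM in morulae and 0, 0 and 0.0949 CPM in blastocysts (adjusted p = 0.0222), with morula 1 near the blastocysts. Gm364 was at 31.0, 111 and 56.6 and 0.871, 0.683 and 1.33 CPM (log2 fold change -6.13, SE 1.79, adjusted p = 0.0370). Tmigd1 was at 23.9, 52.0 and 3.30 and 0, 0.248 and 0.949 CPM (log2 fold change -6.28, SE 1.64, adjusted p = 0.0248). A430060F13Rik, Gm5650 and AC166574.5 fell too, from at most 35.4 CPM in a morula. These 6 genes were called in 1 to 3 of the 6 fits without 1 embryo. Alyref itself was at 211, 291 and 162 CPM in morulae and 189, 239 and 239 CPM in blastocysts (log2 fold change 0.01, SE 0.24, adjusted p = 0.990), and counts per gene do not show which embryos carry the knockout copy.

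The X chromosome had 35 genes higher (4.52%) and 66 lower (8.53%) of 774 tested, near the 5.62% and 7.43% of all genes. Its median log2 fold change was -0.27, against -0.04 over all genes. Adding Y-linked expression as a covariate gave the X a median of -0.06, with 43 higher and 40 lower. A median of -0.27 was not particular to the X: chromosome 12 had it too, and -0.26 with the covariate. Xist, which silences the second X of female cells, was at 95.3, 14.7 and 275 CPM in morulae 1 to 3 and at 11.8 to 13.3 CPM in the blastocysts, so it was high in the morulae without Y-linked RNA.

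The stage difference of the Gabpb1 cross rests on other embryos, 2 morulae and 3 blastocysts. There edgeR called 0 of the 18410 genes (0%), with 1237 at an unadjusted p under 0.05 and a smallest adjusted p of 0.0724. Of the 1035 genes higher in Alyref-cross blastocysts, 75.6% had a positive log2 fold change in the Gabpb1 cross, against 51.6% of all genes tested. Of the 1367 lower genes 70.7% had a negative one, against 47.5%. Across all genes the log2 fold changes of the crosses gave r = 0.22 (Pearson) and rho = 0.25 (Spearman), and genes are not independent replicates. The sizes differed: the median in the Gabpb1 cross was 0.29 for the genes higher here and -0.26 for the lower ones, where the Alyref cross gave 1.60 and -1.64. The called genes were chosen for their size in the Alyref cross.

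**Figure D5:**
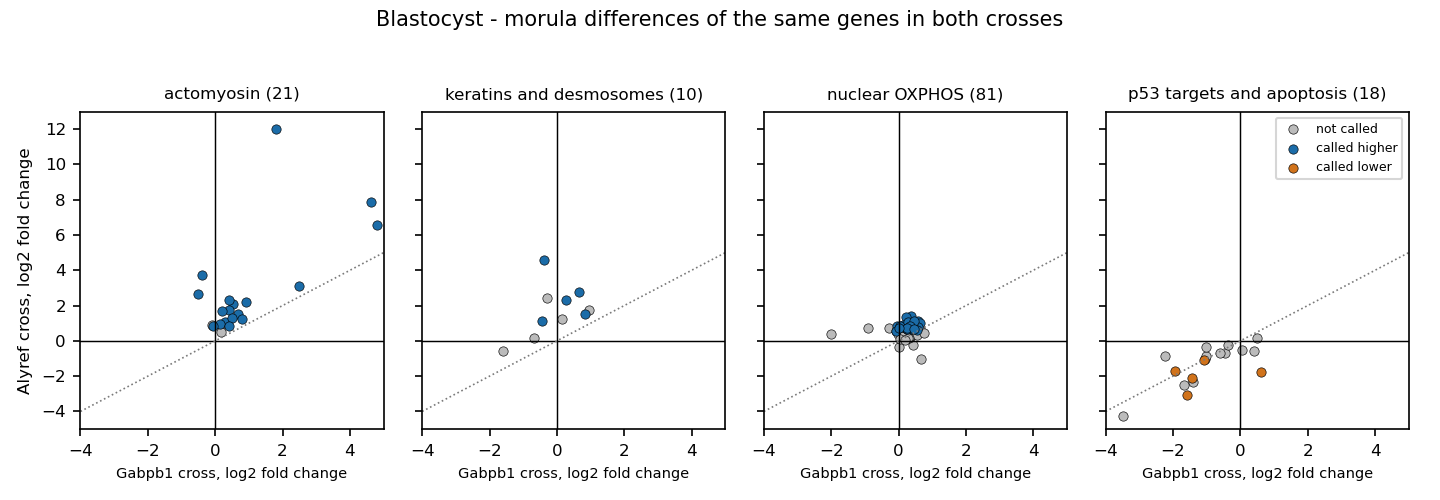
Log2 fold change between blastocysts and morulae of the members of 4 gene lists in the Alyref cross (vertical axis) against the Gabpb1 cross (horizontal axis); points are genes, coloured by the call in the Alyref cross, and the dotted line marks equal values. Members of the actomyosin and nuclear OXPHOS lists lie mostly above the dotted line, with list medians of 1.70 and 0.67 in the Alyref cross and 0.40 and 0.27 in the Gabpb1 cross.

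The difference between the 2 crosses was itself tested for every gene, and 1 gene passed (0.00543%). Wls, which carries Wnt ligands to the cell surface, was at 0.435, 0.0844 and 0.454 CPM in Alyref-cross morulae and 16.0, 26 and 6.36 CPM in Alyref-cross blastocysts (log2 fold change 5.54, SE 0.77, adjusted p = 0.00505). In the Gabpb1 cross the morulae held 41.3 and 15.2 CPM and the blastocysts 3.79, 4.74 and 10.1 CPM (log2 fold change -2.18, SE 0.67, not called). Both Gabpb1-cross morulae were above every Gabpb1-cross blastocyst, the opposite order to the Alyref cross. The difference of the stage differences was 7.72 on the log2 scale (SE 1.01, adjusted p = 0.0218). Without 1 embryo at a time its adjusted p was 0.00374 to 0.143 and passed in 5 of the 11 fits. With Y-linked expression as a covariate it was 0.0765. Without Alyref-cross morula 3 this test called 702 genes, and without any other embryo 0 to 7. WT blastocysts held 16.9, 17.0 and 29.1 CPM. For Actc1 the same test gave an adjusted p of 0.278, for Nanog 0.120 and for Hand1 0.348, so a difference between the crosses was not shown for these.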

How the data were processed

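Single whole embryos were sequenced as polyA RNA after 16 cycles of PCR. The deposited table holds raw counts per gene, read from its whole-number values, with gene length, position and versioned Ensembl identifiers per the file header. Per the submitters' processing notes the tools were Trimmomatic, Trim Galore, cutadapt, STAR and featureCounts with mm10. Their settings, strand setting included, are not given in the sources used here. Column names were matched to the labels of all 19 embryos, and 92 ERCC rows were kept out of library sizes and tests.

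FPKM was computed from counts, gene length and the total of the 53379 gene rows. The 18410 genes with FPKM of 1 or more in at least 2 embryos were tested with edgeR 4.0.16 (TMM, quasi-likelihood F test, 7 group means, R 4.3.3). P-values were adjusted by Benjamini-Hochberg over all of them and called under 0.05. Standard errors were derived from the fold change and its F statistic. Alternatives used limma 3.58.1, DESeq2 1.42.0, ERCC scaling, no filter, the 6 embryos alone, a replicate block and each embryo left out. The Y-linked covariate was added after the data were seen. The fitting code was tested on simulated data. Amplified reads are not independent molecules, so a depth of 9818971 to 31536282 counts bounds counting error alone.

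Members and lists were chosen with earlier results of these data known. Named were the 8 largest rises and 8 largest falls without overlap at a mean FPKM of 5 or more, the 4 of smallest p in each direction, up to 4 called genes per list and direction, a short list of lineage genes, and genes called for the difference between crosses. Other list members named with values were chosen after their values were seen. Some genes that the rule names are not reported here. Promoter sequences are from RefSeq (GRCm38.p6).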

Additional observations from a re-analysis of the deposited data

Results flagged for a closer look

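Wls was the 1 gene whose stage difference differed between the crosses in a direct test (edgeR quasi-likelihood test of the difference, Benjamini-Hochberg over 18410 genes). The difference of the 2 log2 fold changes was 7.72 (SE 1.01, adjusted p = 0.0218). It kept its direction in each of the 11 fits without 1 embryo, and its adjusted p there ran from 0.00374 to 0.143.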

How the results depend on the processing

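The main counts were 2402 genes in all, 1035 higher and 1367 lower. DESeq2 size factors, limma on log2(FPKM + 1) and no filter on low values gave 2420 (1101 higher, 1319 lower), 2524 (1549 and 975) and 1990 (979 and 1011) in all. ERCC scaling gave 352 (31 higher, 321 lower), the DESeq2 Wald test 3762 (1786 higher), voom with embryo quality weights 7262 (3623 and 3639), the 6 embryos alone 24 (11 and 13), and limma on log2(FPKM + 0.1) 2229 (1373 and 856). Both limma fits on log2 FPKM had more rises than falls, while voom, which also uses limma, had slightly more falls. With Y-linked expression as a covariate 634 were higher. Without 1 embryo at a time the counts ran from 370 to 4560 in all, from 176 to 2193 higher and from 194 to 2367 lower, and for the difference between crosses from 0 to 702. That difference had 0 calls with the Y-linked covariate, where 2580 genes had an unadjusted p under 0.05. The log2 ratio of gene to ERCC counts differed by -0.67 to 0.029 without 1 embryo at a time, and the 0.029 was found without morula 3. The cause of these shifts was not tested.

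The replicate block with the 6 embryos alone called 0 genes, with 4481 at an unadjusted p under 0.05. Deviations of embryos with the same number gave r = -0.003, -0.13 and -0.09, and those with different numbers -0.06 to 0.15. Deviations from a mean of 3 embryos balance out, so these values cannot show whether embryos shared parents or a session. No label pairs the embryos, and the numbers are used here as names of samples only.

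Among the named genes, the uncalled Sox2, Aqp3 and Alyref and the called Tdpoz4 changed sign. Sox2 became 0.48 and 1.53 with limma at pseudocounts of 1 and 0.1, 1.66 with voom, 1.30 with the replicate block and ran from -0.91 (without morula 2) to 2.44 (without morula 3). Aqp3 became 0.017 and 0.018 with limma at pseudocounts of 1 and 0.1, and ran from -0.53 (without morula 3) to 0.23 (without morula 2). Alyref became -0.13 with ERCC scaling, -0.17 with the Y-linked covariate, and ran from -0.17 to 0.29 without 1 embryo. Tdpoz4 ran from -7.53 (without morula 3) to 0.78 (without morula 2). Of the named genes 66 lost their call with the 6 embryos alone, 49 with ERCC scaling and 20 with the Y-linked covariate.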

Other observations

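Further gene groups were listed after their values were seen, so their counts are descriptions. Of 98 tested ribosome assembly factors, which build ribosomal subunits in the nucleolus, 43 were lower in blastocysts and 0 higher, with a median log2 fold change of -0.67. Over all genes 7.43% were lower. Npm1, nucleophosmin, was at 2601, 3909 and 1834 CPM in morulae and 1193, 1080.1 and 1352 CPM in blastocysts (log2 fold change -1.20, SE 0.23, adjusted p = 0.00887, edgeR). The count was 50 without morula 3, 7 to 18 without any other embryo and 37 with the Y-linked covariate. The median in the Gabpb1 cross was 0.03. Of 27 RNA polymerase subunits 7 were lower and 0 higher, against 7.43% lower over all genes. Without any 1 embryo other than morula 3, 1 to 3 of them were lower.

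Of 19 genes of the tricarboxylic acid cycle and enzymes linked to it 9 were higher and 0 lower, with a median of 0.81. Over all genes 5.62% were higher. Of the 9, 2 (Sdha and Sdhd) also belong to respiratory complex II. Mdh1, the cytosolic malate dehydrogenase, which is linked to the cycle but not an enzyme of it, was at 101, 72.4 and 127 CPM in morulae and 412, 304 and 240.1 CPM in blastocysts (log2 fold change 1.67, SE 0.32, adjusted p = 0.00812, edgeR). Idh3a, a subunit of isocitrate dehydrogenase in mitochondria, was at 238, 53.4 and 425 and 752, 793 and 591 CPM, with morula 3 between the other morulae and the blastocysts. The count was 13 without morula 3, 1 to 6 without any other embryo and 6 with the Y-linked covariate. In the Arp2/3 complex, which branches actin filaments, 4 of 9 genes were higher (Arpc2, Actr3, Arpc5 and Arpc4), against 5.62% of all genes, and 2 or 3 were without any 1 embryo other than morula 3. All 3 tested Trim43 genes were lower (0 to 2 without any 1 embryo other than morula 3), and they share near-identical copies. Trim43b was at 1111, 2712 and 162 CPM in morulae and 102, 102 and 69.0 CPM in blastocysts, highest in morula 2.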
